A study of Mus musculus with 4 samples.

Results

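The cells described here are human T cells from the blood of humanised mice that carried transcripts of at least 2 of the 4 genes AK5, NOG, NRP2 and LRRN3. They were chosen from single-cell count matrices by a rule on measured unique molecular identifiers (UMIs, each counting 1 captured transcript). A barcode had to have over 50% of its UMIs on human genes and at least 500 human genes, at least 1 UMI of CD3D, CD3E or CD3G, no UMI of CD8A, CD8B, FOXP3 or MS4A1, and at least 2 of the 4 named genes. Of 17842 human cells, 255 met the rule, namely 45 from naive blood, 40 from sham blood and 170 from blood after spinal cord injury (SCI), and none from the injured cord. They had been proposed as naive-like T cells, and the data divided on that name. In every blood library 17 of 20 genes of a naive T cell list were higher than in the other CD8-negative T cells. Over all genes used, 2454 of 9494 were higher in every blood library. The effector protease gene GZMA was also higher in every blood library. The rule made this contrast, so these values are descriptions. The cells are therefore called NRP2/AK5/NOG/LRRN3 T cells below.

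All 4 libraries came from NSG-SGM3 mice, which lack their own lymphocytes, carry human IL3, CSF2 and KITLG transgenes driven by the CMV promoter, and were engrafted as irradiated pups with human cord blood CD34+ stem cells. The groups were naive blood (untreated males), sham blood (males, 7 days after a T9 laminectomy), SCI blood and SCI cord (pooled males and females, 7 days after a T9 spinal cord injury), with an age of 15 weeks in the labels of all 4. Cells were sorted on human CD45, a marker of white blood cells, and each library held cells from several animals that the labels do not tell apart. There was 1 library per condition, so no difference between conditions could be tested, host sex cannot be told apart from injury, and every interval below is a 95% exact interval that covers counting error only.

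Naive T cells are mature T cells that have left the thymus and not yet met antigen. They carry CCR7, a chemokine receptor that guides them into lymph nodes, depend on IL-7 through its receptor IL7R, and keep the transcription factors LEF1 and TCF7, while granzymes, the proteases of cytotoxic granules, are usually a feature of effector and memory cells. Of the genes of the rule, NRP2 encodes a co-receptor for class 3 semaphorins and VEGF-C, NOG the secreted BMP antagonist noggin, AK5 an adenylate kinase that interconverts adenine nucleotides, and LRRN3 a membrane protein with leucine-rich repeats whose transcript is known from naive T cells.

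The blood libraries held 6962 to 8124 barcodes and 34161760 to 36487994 UMIs each, and the cord library held 231 barcodes and 4206461 UMIs. CD8-negative T cells, meaning all cells that met the rule apart from its last clause, numbered 3172, 2500 and 2859 in naive, sham and SCI blood and 44 in the cord. The libraries shared 0 to 10 barcodes of human cells per pair, and none of these was an NRP2/AK5/NOG/LRRN3 T cell. In the counts as deposited, CD3G, a subunit of the T cell receptor complex, was found in 44 of 45, 39 of 40 and 163 of 170 cells in naive, sham and SCI blood. The rule itself asked for a UMI of CD3D, CD3E or CD3G, so these shares describe the selection and support nothing by themselves.

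NRP2/AK5/NOG/LRRN3 T cells were most frequent in SCI blood. They made up 0.683% of human cells in naive blood (95% interval 0.498 to 0.912%), 0.817% in sham blood (0.584 to 1.11%) and 2.73% in SCI blood (2.34 to 3.17%). The interval of SCI blood lay above those of both control libraries, which overlapped each other. The share in SCI blood was 4.00-fold that in naive blood (2.86 to 5.69) and 3.34-fold that in sham blood (2.36 to 4.84), and the share in sham blood was 1.20-fold that in naive blood (0.762 to 1.87). Over CD8-negative T cells alone the shares were 1.42%, 1.60% and 5.95%, in the same order. In SCI cord none of 127 human cells met the rule, which allows a share of up to 2.36% by a floor of 3 counts and 2.86% by the exact interval. Shares like those of naive and sham blood were not detectable at this depth. The share of SCI blood lay between the 2 limits, and the ratio of cord to SCI blood had an upper bound of 1.08, so the cord was not shown to be lower.

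The rule needs transcripts to be captured, so the share falls with depth. When every human cell was reduced at random to 2000 UMIs and the rule applied again, 12 of 6263 cells in naive blood, 10 of 4812 in sham blood and 47 of 6111 in SCI blood met it, which is 0.192%, 0.208% and 0.769%. At 1000 UMIs 4, 4 and 12 cells were left. The order of the libraries held at both depths, although at 1000 UMIs the intervals overlapped.

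**Figure D1:**
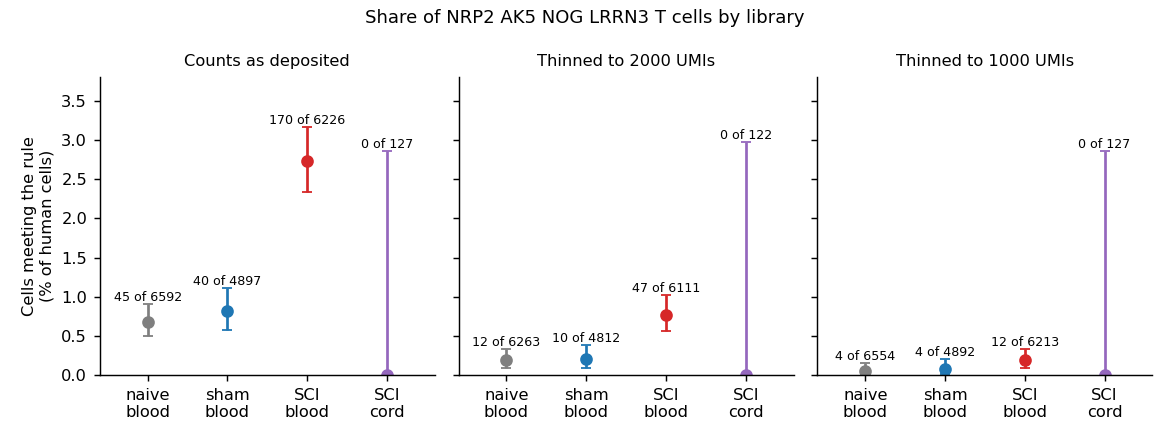
Share of NRP2/AK5/NOG/LRRN3 T cells among human cells (y axis, %) in the 4 libraries (x axis), from the counts as deposited and after thinning every cell to 2000 or 1000 UMIs. Points are shares, bars 95% exact intervals, and the numbers above are cells meeting the rule of all human cells. SCI blood stands at 2.73% as deposited, above naive blood at 0.683% and sham blood at 0.817%, and the interval of the cord library with 0 of 127 cells reaches 2.86%.

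All 4 genes of the rule contributed members, and over the 3 libraries together LRRN3 contributed most. LRRN3 was found in 32 of 45 cells in naive blood, 30 of 40 in sham blood and 133 of 170 in SCI blood. AK5 was found in 21, 31 and 83 of them, NOG in 13, 14 and 57, and NRP2 in 29, 17 and 94. The most common pair was NRP2 with LRRN3 (77 cells), followed by AK5 with LRRN3 (49), NOG with LRRN3 (33), AK5 with NRP2 (28), AK5 with NOG (23) and NOG with NRP2 (7). A total of 6 cells had all 4 genes. These counts are what the rule selected and support nothing by themselves.

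Outside these cells AK5 and NRP2 were rare. In the other CD8-negative T cells this was in part set by the rule, since they held at most 1 of the 4 genes. NOG had 19 counts in those of naive blood and 44 in those of SCI blood. In the counts as deposited, AK5 was found in 0.640%, 0.772% and 2.23% of the other CD8-negative T cells of naive, sham and SCI blood, and NRP2 in 0.768%, 0.772% and 1.34%. LRRN3 was more widespread, with 5.95%, 9.80% and 15.3% of the other CD8-negative T cells and 23.6%, 34.3% and 38.7% of CD8 T cells. Among CD8 T cells, which the rule left out, AK5 reached 0.103%, 1.67% and 2.90%, and NRP2 0.207%, 0.314% and 0.812%. In SCI cord, 6 of the 44 CD8-negative T cells had LRRN3, 1 had AK5, 1 had NRP2 and 0 had NOG.

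Over the 3 blood libraries together, GZMA, CCR7 and IL7R rose in frequency with the number of rule genes in a CD8-negative T cell. KLRB1, which encodes the CD161 receptor of memory and innate-like T cells, became rarer. Cells of the 3 blood libraries were thinned to 2000 UMIs and grouped by their rule genes in the deposited counts. GZMA was found in 30.5% of 6925 cells with none of the 4 genes and 48.0% of 1080 cells with exactly 1, just outside the rule. It was found in 77.9% of 217 cells with exactly 2, just inside it, and in 89.5% of 38 cells with 3 or 4. CCR7 was found in 30.9%, 42.1%, 58.5% and 60.5% of the same 4 groups, and KLRB1 in 43.2%, 31.0%, 7.37% and 5.26%. IL7R was found in 40.2%, 53.0%, 77.4% and 78.9%. TCF7 had 48.1%, 60.6%, 72.4% and 63.2% and LEF1 31.1%, 40.3%, 39.6% and 47.4%, so TCF7 and LEF1 did not rise at each step. GZMA increased at each step up to 2 rule genes in each blood library, from 31.3% through 48.8% to 75.6% in naive blood, from 27.0% through 36.5% to 73.3% in sham blood and from 33.0% through 53.8% to 79.5% in SCI blood. With 3 or 4 rule genes GZMA was found in 4 of 4 cells in naive blood, 6 of 10 in sham blood and 24 of 24 in SCI blood. The last step up was thus not seen in sham blood, and SCI blood gave 24 of the 38 cells in that group. At that step CCR7 went from 78.0% to 3 of 4 cells in naive blood and from 66.7% to 6 of 10 in sham blood. IL7R went from 80.5% to 3 of 4 cells in naive blood. KLRB1 stood at 42.4% with none and 43.7% with 1 of the genes in sham blood, so it was not rarer there at the first step. These values describe the selection, and cells that met the rule were deeper before thinning than those that did not. GZMK, another granzyme gene, differed by library: with none, 1 and 2 of the genes it was found in 10.4%, 17.2% and 29.3% of cells in naive blood, 5.15%, 8.19% and 3.33% in sham blood and 9.3%, 9.58% and 6.85% in SCI blood.

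**Figure D2:**
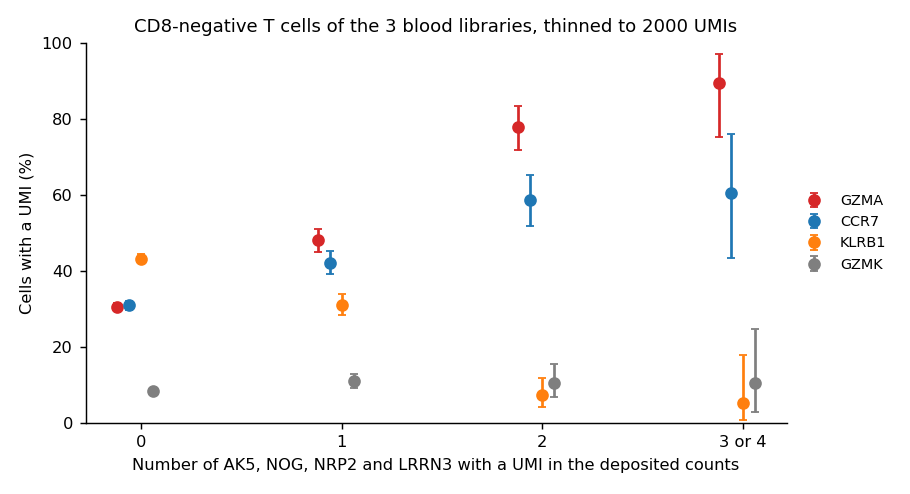
Share of CD8-negative T cells with at least 1 UMI of GZMA, CCR7, KLRB1 or GZMK (y axis, %) by the number of rule genes in the deposited counts (x axis), over the 3 blood libraries with cells thinned to 2000 UMIs. Points are shares and bars 95% exact intervals. Pooled over the libraries, GZMA climbs from 30.5% to 89.5%, KLRB1 falls from 43.2% to 5.26%, and GZMK lies between 8.45% and 10.9%. In sham blood alone GZMA goes from 73.3% with 2 of the genes to 60% of 10 cells with 3 or 4. In naive blood alone GZMK goes from 10.4% with none of the genes to 29.3% with 2.

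The gene lists compared next set NRP2/AK5/NOG/LRRN3 T cells against the other CD8-negative T cells of the same library, which is the contrast that the rule made, so the values are descriptions. Levels are in CPM, a gene's counts scaled by the summed human UMIs of the set of cells without ribosomal and mitochondrial genes. Log2 ratios add 0.5 counts. A gene was used in a library if both sets of cells together held at least 50 of its counts, and genes with no count in the NRP2/AK5/NOG/LRRN3 T cells entered the counts of 2-fold genes by their fitted ratio. Of 9494 genes used in all 3 blood libraries, 0.969% were at least 2-fold higher in all 3 and 1.53% at least 2-fold lower in all 3. Of the same genes 2454 were above 0 in all 3 and 1559 below 0 in all 3. These are the background for counts of genes above or below 0 in all 3 libraries. The filter lets in genes of low count mainly where the NRP2/AK5/NOG/LRRN3 T cells are high: under a second filter, chosen after seeing the data and asking for at least 10 counts expected in these cells, genes at least 2-fold higher went from 12.2% to 2.22% in naive blood, from 10.1% to 2.27% in sham blood and from 3.9% to 1.72% in SCI blood. Median-of-ratios scaling in place of CPM lowered every log2 ratio by 0.17 in naive blood, 0.12 in sham blood and 0.08 in SCI blood.

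Genes of naive T cells were higher in NRP2/AK5/NOG/LRRN3 T cells. The median log2 ratio over the 20 genes was 1.20 in naive blood, 0.92 in sham blood and 0.60 in SCI blood, against 0.12, 0.09 and 0.05 over all genes used. Of the 20, 17 were above 0 in all 3 libraries and 6 at least 2-fold higher in all 3, namely ACTN1, TXK, SATB1, FHIT, BACH2 and CCR7, set against the background of 0.969%. Under the filter on expected counts 14, 15 and 20 genes of the list were used, with medians of 0.86, 0.58 and 0.60 and 12, 12 and 17 of them above 0, and ACTN1, TXK, SATB1, FHIT and BACH2 did not pass in naive blood. ACTN1, which encodes the actin cross-linker alpha-actinin-1, had log2 ratios of 3.04, 3.17 and 2.39 in naive, sham and SCI blood, and SATB1, a chromatin organiser of thymocytes, had 2.01, 2.14 and 1.48. CCR7 had 1.74, 1.11 and 1.23, and IL7R 1.81, 1.39 and 0.98. The 2 genes below 0 in all 3 libraries were the co-stimulatory receptors CD27 (log2 ratios of -0.18, -0.27 and -0.09) and CD28 (-0.12, -0.68 and -0.68).

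The same naive genes were seen cell by cell. After thinning to 2000 UMIs, CCR7 was found in 77.8%, 65% and 52.4% of the cells in naive, sham and SCI blood, against 35.2%, 34.1% and 27.6% of the other CD8-negative T cells. IL7R was found in 80%, 75% and 77.6% against 37.1%, 41.1% and 48.1%. Before thinning CCR7 was found in 95.6%, 100% and 88.2% of the cells. TCF7 was found in 66.7%, 72.5% and 71.8% after thinning, and LEF1 in 42.2%, 42.5% and 40%, where the intervals of LEF1 overlapped those of the other CD8-negative T cells (28.7%, 34.8% and 34.2%) in every library.

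GZMA, which encodes granzyme A, was nevertheless the granule gene that most of the cells carried. Its summed counts were 229 in naive blood, 282 in sham blood and 1222 in SCI blood, or 1612, 1326 and 1775 CPM, against 507, 453 and 643 CPM in the other CD8-negative T cells. The log2 ratios were 1.67 (95% interval 1.47 to 1.86), 1.55 (1.37 to 1.72) and 1.46 (1.37 to 1.55). A typical cell had a median of 4, 6 and 6 GZMA UMIs, with maxima of 16, 25 and 41, so the level did not come from a few cells. After thinning, GZMA was found in 77.8% of the cells in naive blood (62.9 to 88.8%), 70% in sham blood (53.5 to 83.4%) and 82.4% in SCI blood (75.8 to 87.8%). The other CD8-negative T cells had it in 32.7%, 28.2% and 37.3%, CD8 T cells in 47.2%, 49.9% and 59.3%, and cells with FOXP3, the regulatory T cell factor, in 10.1%, 6.03% and 7.44%. Before thinning it was found in 82.2%, 92.5% and 93.5% of the NRP2/AK5/NOG/LRRN3 T cells.

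B cells, which do not use GZMA, give a background level for transcripts free in the droplets. They were cells with MS4A1 and no UMI of CD3D, CD3E or CD3G. That choice leaves out droplets with stray CD3 transcripts, so the level may be an underestimate. GZMA was found in 0.328%, 0.344% and 0.548% of these B cells after thinning, and in 1.11%, 0.861% and 0.763% before thinning. The median depth of the B cells was 3611.5, 5747 and 4874 UMIs, against 4189, 6917.5 and 5606 for the NRP2/AK5/NOG/LRRN3 T cells. The interval of GZMA in the NRP2/AK5/NOG/LRRN3 T cells lay above that of CD8 T cells in all 3 blood libraries.

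Beyond GZMA and GZMM, most genes of the cytotoxic and effector list used in all 3 libraries were lower. Of these 14 genes, GZMA and GZMM, a granzyme of innate-like lymphocytes, were at least 2-fold higher in all 3, beside 0.969% over all. In all 3 libraries 9 were below 0, beside 1559 of 9494 genes over all. GZMM had log2 ratios of 1.63, 1.12 and 1.35, from 38, 28 and 145 counts. GNLY, which encodes the pore-forming granulysin, had 1 count in naive blood, with a log2 ratio of -4.81 (-10.70 to -2.92), 1 in sham blood, with -4.50 (-10.39 to -2.60), and 0 in SCI blood, at least 67.3-fold lower than in the other CD8-negative T cells by a floor of 3 counts. GZMB had no count in any of the 255 cells, at least 5.26-fold lower over the 3 libraries. NKG7, a granule membrane protein, was found after thinning in 4.44%, 0% and 2.35% of the cells, where the interval around 0 of 40 reaches 8.81%, against 50.1%, 37.8% and 43.1% of CD8 T cells. The list's median log2 ratio was -0.997, -1.61 and -2.54, or -0.94, -1.19 and -2.01 with genes at 0 counts set to their bound. Under the filter on expected counts 8, 8 and 14 of its genes were used, and 4, 5 and 12 of them were below 0. The medians were then -0.69, -0.68 and -2.52, so the list was evenly split in naive blood.

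GZMK, the granzyme of memory CD8 T cells, differed between the libraries. It had 54 counts among the 45 cells of naive blood, 15 among the 40 cells of sham blood and 76 among the 170 cells of SCI blood. After thinning it was found in 28.9% of the cells in naive blood (16.4 to 44.3%), 7.5% in sham blood (1.57 to 20.4%) and 6.47% in SCI blood (3.27 to 11.3%). The other CD8-negative T cells showed 10.9%, 5.52% and 9.35%, and the intervals of naive and SCI blood did not overlap within the NRP2/AK5/NOG/LRRN3 T cells.

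**Figure D3:**
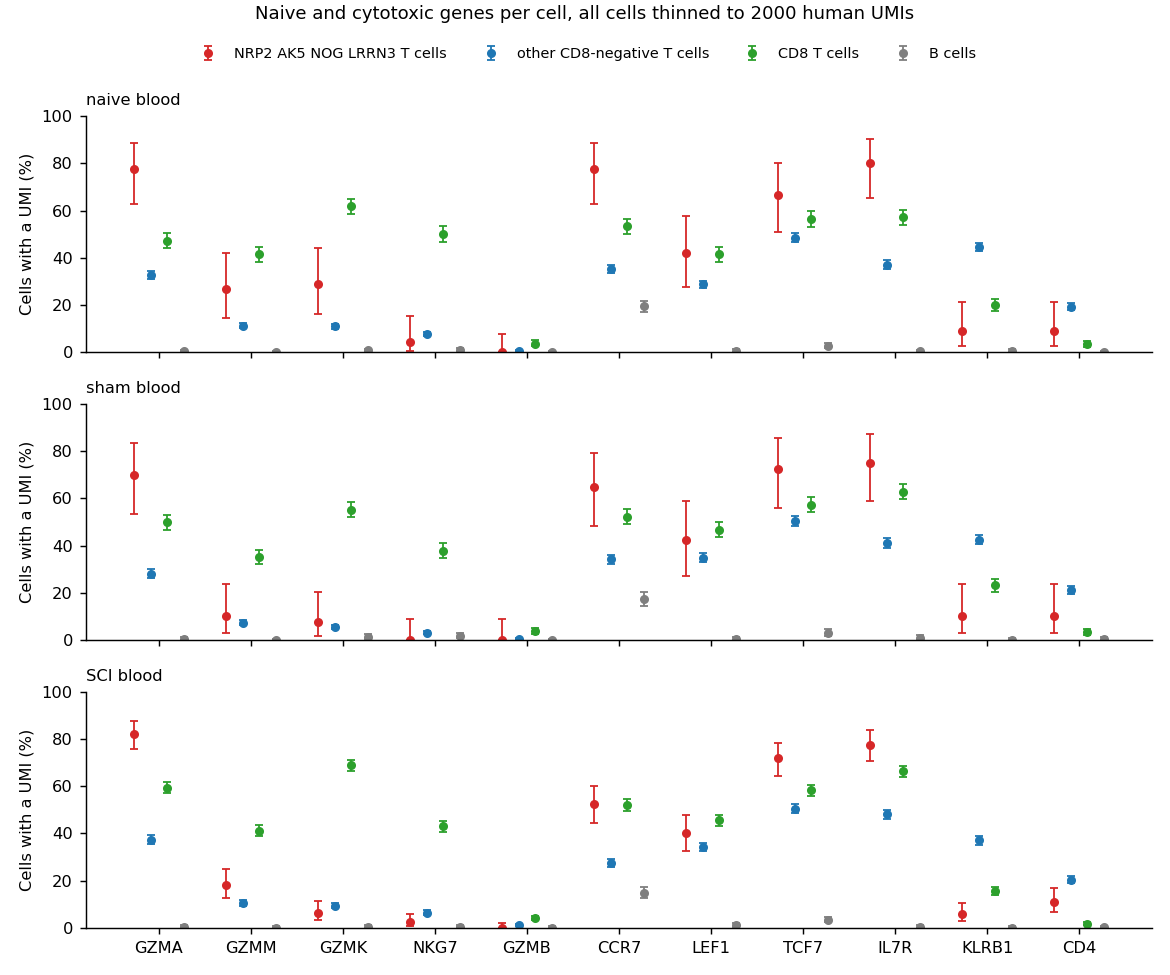
Share of cells with at least 1 UMI (y axis, %) of 11 naive, cytotoxic and T cell genes (x axis) in each blood library, all cells thinned to 2000 human UMIs. Points are shares and bars 95% exact intervals for NRP2/AK5/NOG/LRRN3 T cells, other CD8-negative T cells, CD8 T cells and B cells. NRP2/AK5/NOG/LRRN3 T cells are the highest of the 4 groups for GZMA, TCF7 and IL7R in each library, and lie far below CD8 T cells for GZMK and NKG7.

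GZMA and the naive markers were found in the same cells. Over the 3 blood libraries after thinning, 203 of the 255 cells had GZMA. Of these 203, 124 also had CCR7 (61.1%) and 145 had TCF7 (71.4%). Of the 52 cells without a GZMA UMI, CCR7 was found in 50% and TCF7 in 69.2%. The shares with and without GZMA had overlapping intervals for both genes, so the naive markers did not mark the GZMA-negative cells alone. CD4, the co-receptor of helper T cells, was found in 7.88% of cells with GZMA and 21.2% of those without. GZMA was as common with each of the rule genes, in 94.1% of cells with AK5, 91.7% with NOG, 90.7% with NRP2 and 91.3% with LRRN3 in the counts as deposited.

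Genes of memory and differentiated T cells were lower. The median log2 ratio over 25 genes was -0.90 in naive blood, -0.88 in sham blood and -0.94 in SCI blood. In all 3 libraries 19 of the 25 were below 0, beside 1559 of 9494 genes over all. The 5 genes at least 2-fold lower in all 3 were KLRB1, LGALS1, ITGB1, CXCR3 and CCR4, set against the background of 1.53%. KLRB1 had 8, 16 and 59 counts, with log2 ratios of -3.37, -2.94 and -2.62. LGALS1, which encodes galectin-1, had -1.70, -1.55 and -2.31, and ITGB1, the beta-1 integrin chain that marks memory T cells, had -1.92, -1.51 and -1.42. S100A4, an abundant calcium-binding protein of memory cells, had -1.08, -0.88 and -0.94 from 614, 1057 and 3275 counts. It was lower in level but still present in most of the cells. Over the 3 blood libraries after thinning, S100A4 was found in 94.0% of cells with 2 rule genes and 94.7% with 3 or 4. CD8-negative T cells with none of the rule genes had it in 98.1%. TIMP1, the protease inhibitor, was the 1 gene above 0 in all 3 libraries, with 0.64, 1.18 and 0.06.

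Receptors of regulatory, activated and tissue-homing T cells were also low. In the regulatory T list all 8 genes used were below 0 in all 3 libraries, and 5 were at least 2-fold lower in all 3, namely TIGIT, TNFRSF18, IL2RA, CTLA4 and IKZF2. The rule left FOXP3 cells out of both sides of this contrast. TIGIT, an inhibitory receptor, had 0 counts in naive blood, at least 7.44-fold lower, 2 in sham blood with a log2 ratio of -3.54 (-6.91 to -2.01) and 3 in SCI blood with -4.08 (-6.59 to -2.75). In the checkpoint list 7 of 9 genes were below 0 in all 3 libraries and 5 at least 2-fold lower. In the homing list 11 of 18 were below 0 and 6 at least 2-fold lower. Over all genes used, 1559 of 9494 were below 0 in all 3 libraries and 1.53% at least 2-fold lower. The lists overlap, so their counts are not separate. TIGIT, CTLA4 and ENTPD1 belong to both the regulatory and the checkpoint list, and CCR4, CXCR3 and ITGB1 to both the memory and the homing list. CCR10, a skin-homing chemokine receptor, had no count in any of the cells, at least 14.0-fold lower over the 3 libraries. ITGA1, the alpha-1 integrin chain, was the homing gene that was at least 2-fold higher in all 3, with log2 ratios of 4.02, 3.51 and 1.72 from 12, 14 and 27 counts. The chemokine receptor CXCR4 had 1.14, 1.28 and 0.95, and the oxysterol receptor GPR183 had 1.63, 1.20 and 0.80.

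**Figure D4:**
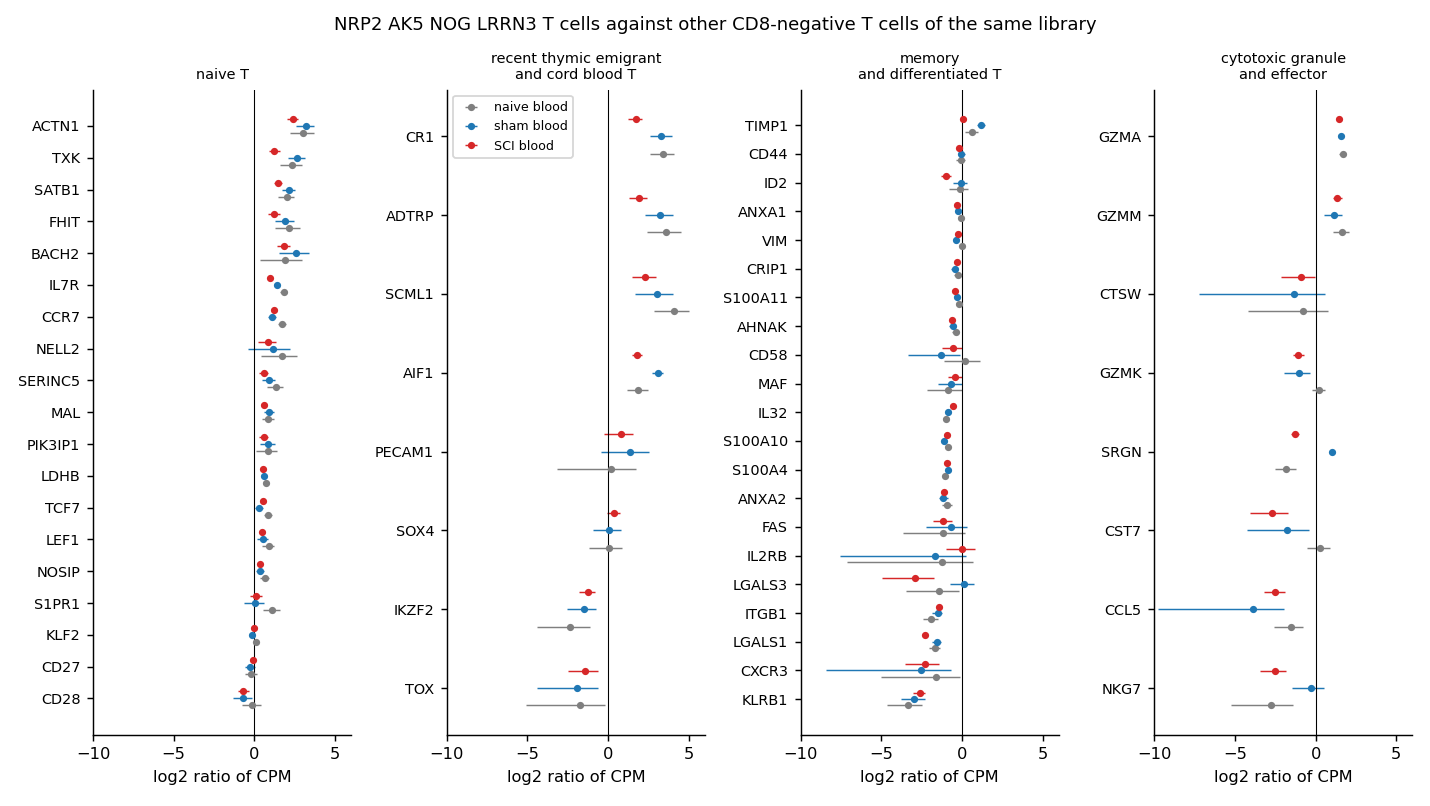
Log2 ratios of CPM (x axis) of NRP2/AK5/NOG/LRRN3 T cells against other CD8-negative T cells for the genes (y axis) of 4 lists in naive, sham and SCI blood. The genes drawn had at least 50 counts in each library's comparison and at least 1 count in the cells of each library, and bars are 95% exact intervals. Naive genes lie mostly right of 0 and memory genes mostly left, while GZMA and GZMM stand right of 0 in a cytotoxic list that otherwise lies mostly left.

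Genes described for recent thymic emigrants and cord blood T cells split, and their values depended on the filter. Of 9 genes used in all 3 libraries, 4 were at least 2-fold higher in all 3 and 3 at least 2-fold lower. The higher genes were CR1, a complement receptor (log2 ratios of 3.4, 3.31 and 1.70), ADTRP (3.61, 3.24 and 1.89), SCML1 (4.07, 3.02 and 2.28) and AIF1 (1.88, 3.1 and 1.78). The lower genes were TOX (-1.75, -1.93 and -1.42), a regulator of thymocyte development, IKZF2 (-2.34, -1.52 and -1.25), which encodes Helios, and TSHZ2, with 0, 1 and 4 counts against 399, 556 and 232, where 0 in naive blood is at least 1.95-fold lower. The list's median was 0.11, 1.28 and 1.33 in naive, sham and SCI blood. With at least 10 counts expected in the cells it was -2.34, -1.52 and 0.34, from 1, 5 and 7 genes. CR1, ADTRP, SCML1 and AIF1 did not pass that filter in naive blood, and SCML1, with 10 counts in the cells and 42 in the others, passed the filter of 50 there only through the cells in which it was high. AIF1 in sham blood rested in part on 1 barcode, without which it had 1.80.

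BCL2, IL6ST and KLRG1 were higher, while the cytokine receptor and survival list as a whole divided. Of its 21 genes used, 9 were above 0 and 4 below 0 in all 3 libraries, and the median log2 ratio was 0.21, 0.54 and 0.03 in naive, sham and SCI blood, beside 0.12, 0.09 and 0.05 over all genes used. BCL2, the anti-apoptotic protein downstream of IL-7, had log2 ratios of 2.45, 1.92 and 1.77, and IL6ST, the shared signalling chain of IL-6 family receptors, had 1.88, 1.67 and 1.26. These 2 genes of the list were at least 2-fold higher in all 3 libraries, and 1, IL2RA, was at least 2-fold lower. KLRG1, an inhibitory receptor usually found on differentiated T cells and NK cells, had 36, 39 and 197 counts and log2 ratios of 1.94, 1.94 and 1.20. After thinning it was found in 17.8%, 27.5% and 24.1% of the cells. Of the 7 genes of the gamma delta and innate-like list used in all 3 libraries, KLRB1, TRGC2 (log2 ratios of -2.26, -1.80 and -1.79) and NCR3, with 1, 2 and 13 counts, were at least 2-fold lower in all 3. In sham blood 4 of the 7 were above 0, KLRG1, TRDC, TRGC1 and CEBPD, with a list median of 0.73, and without the deepest barcode of each library (described below) 1 of the 7 was above 0, with a median of -2.40.

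Among genes with at least 100 counts in each library's comparison, those with the highest ratios in the library where they were lowest were LRRN3, ACTN1, PLAC8, PTGER2, BACH2, AIF1, BCL2, FAM13A, CR1 and DPP4. LRRN3 stands there because the rule selected it, and the limit of 100 counts left out NRP2 and other genes of low count. PTGER2, a receptor for prostaglandin E2, had 45, 57 and 177 counts and log2 ratios of 3.42, 3.08 and 1.88. PLAC8 had 2.99, 2.90 and 1.93, and DPP4, the CD26 peptidase, had 3.02, 2.90 and 1.60. DPP4 had 11 and 13 counts in the cells of naive and sham blood and 96 and 88 in the others. It passed the limit of 100 there only through the cells in which it was high. HOPX, a gene of effector memory T cells, went the other way from PTGER2 and LRRN3. It had no count in the 255 cells against 1437 in the other CD8-negative T cells, at least 21.7-fold lower over the 3 libraries. PTGER2 was found in 48.9%, 57.5% and 51.8% of the cells before thinning.

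Partners of the rule genes' own pathways showed little. In the semaphorin and VEGF list 3 genes had enough counts in all 3 libraries, and none was 2-fold higher or lower in all 3. VEGFB, a ligand, had log2 ratios of 1.02, 0.85 and 1.05, PLXNA3, a semaphorin receptor, 0.15, 0.25 and 0.08, and SEMA4D, a membrane semaphorin, -0.15, 0.22 and -0.49. PLXNA4, a plexin that pairs with neuropilins, was under the count filter in naive and sham blood, with 1 and 6 counts in the cells against 10 and 9 in the others, and had 17 against 43 in SCI blood, where it passed the filter only through its counts in the cells. NRP1, the other neuropilin, had no count in the cells of any blood library. In the BMP list 8 genes were used in all 3, and in the adenylate kinase list 10, and neither list held a gene 2-fold higher or lower in all 3. BMP target genes stood at log2 ratios of -0.15, -0.08 and -0.97 for ID2 and 0.01, -0.81 and -0.09 for ID3.

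T cell receptor signalling genes were at levels like those of the other CD8-negative T cells. Of 25 genes, 6 were above 0 and 5 below 0 in all 3 libraries, beside 2454 and 1559 of the 9494 genes over all. None of the 25 was 2-fold higher or lower in all 3. LCK, the kinase that starts the signal, had log2 ratios of -0.09, 0.06 and 0.02. Of the alpha beta T cell identity genes, CD7 was 2-fold higher in all 3 libraries (1.44, 1.13 and 1.12), while the receptor chain TRAC was below 0 (-0.83, -1.31 and -0.69). CD4 had log2 ratios of 0.26, -0.04 and -0.05. It was found in 33.3%, 50% and 41.2% of the cells before thinning and in 8.89%, 10% and 11.2% after thinning, when the other CD8-negative T cells had it in 19.3%, 21.1% and 20.4%. At this depth a cell without a CD4 UMI could not be called CD4-negative.

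The cells were deeper and richer in ribosomal transcripts than their comparison cells. Median UMIs were 4189, 6917.5 and 5606 in naive, sham and SCI blood, against 3551, 5102 and 4648 in the other CD8-negative T cells. Ribosomal protein genes took a median of 27.0%, 30.1% and 29.7% of UMIs, against 16.3%, 17.1% and 20.5%. At 2000 UMIs the cells held a median of 926, 930.5 and 918.5 genes, fewer than the 1024, 1016 and 975 of the others. In the cell cycle list 9 of 16 genes were below 0 in all 3 libraries, beside 1559 of 9494 genes over all. MKI67, a proliferation marker, stood at -1.63, -2.37 and -1.26. The part of depth in these ratios was not tested beyond the thinning.

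The comparison cells were not free of other cell types, and this differed by library. The plasma cell list of 8 genes summed to 11548 CPM in the other CD8-negative T cells of naive blood, against 17.2 CPM in sham blood and 23.0 CPM in SCI blood, and to 253, 0 and 13.1 CPM in the NRP2/AK5/NOG/LRRN3 T cells. The basophil and mast cell list summed to 68.3, 171 and 101 CPM in the others and to 0, 0 and 2.90 CPM in the cells, with 0, 0 and 2 of its 8 genes found. The B cell list of 10 genes, with MS4A1 at 0 by the rule, summed to 331, 56.4 and 87.1 CPM in the cells and 9408, 126 and 124 CPM in the others. The NK cell list of 8 genes summed to 274, 409 and 1.45 CPM against 69.6, 88.8 and 61.1 CPM, with 2, 3 and 1 of its genes found and NCAM1, a defining marker, at 0. Its 39 counts in naive blood and 87 in sham blood fell to 2 and 0 without the deepest barcode of each library, which held all 28 and 44 counts of TYROBP and 9 of 11 and 39 of 39 of FCER1G. The monocyte list fell from 99, 982 and 8 counts to 8, 9 and 7, while the B cell list went from 47, 12 and 60 counts to 45, 10 and 58. The part of these transcripts in the ratios above was not tested.

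In each blood library 1 barcode stood apart by depth, and in naive and sham blood it carried myeloid transcripts. The deepest NRP2/AK5/NOG/LRRN3 barcode had 15174 UMIs in naive blood, 39779 in sham blood and 61178 in SCI blood, where the next deepest had 8930, 14531 and 16686. None of the 3 had a GZMA UMI. In naive blood it held all 356 counts of HLA-DRA, an MHC class II chain, and 18 of 21 counts of LYZ, the lysozyme of monocytes. It had no count of CD3D, CD3E or TRAC and met the CD3 clause of the rule through 1 UMI of CD3G. In sham blood it held 118 of 119 counts of HLA-DRA, 418 of 423 of the neutrophil and monocyte alarmin S100A9, and all 20 of CD14. In the deposited counts these barcodes met the rule, and the lists and genes named next are given with and without them.

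MHC class II genes turned on these barcodes. The median log2 ratio of the 10 genes against the other CD8-negative T cells was 1.73 in naive blood, 0.29 in sham blood and -1.97 in SCI blood with all barcodes, and -3.25, -3.02 and -2.42 without the deepest barcode of each library. The monocyte list stood at -0.64, 2.32 and -4.00 with all barcodes and at -2.97, -3.70 and -3.96 without. TRDC, the delta chain of the gamma delta T cell receptor, had 28 counts in sham blood, and 0 without the deepest barcode. Without it, HLA-DRA was found in 0 of 44, 1 of 39 and 7 of 169 cells in naive, sham and SCI blood. GZMA and the naive list were slightly higher without these barcodes, with GZMA at 1.81, 1.80 and 1.56 and the naive list at 1.29, 1.14 and 0.69.

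Between conditions the question was whether the cells differed in naive, sham and SCI blood beyond their number. Within NRP2/AK5/NOG/LRRN3 T cells, GZMA stood at 1612, 1326 and 1775 CPM in naive, sham and SCI blood, so the log2 ratio of SCI to naive blood was 0.14 (-0.07 to 0.35) and of SCI to sham blood 0.42 (0.23 to 0.61). The same ratios in the other CD8-negative T cells were 0.34 and 0.50. The naive list had median log2 ratios of -0.12 for sham against naive, -0.13 for SCI against naive and -0.11 for SCI against sham, where the other CD8-negative T cells had 0.07, 0.37 and 0.18. CCR7 was highest in naive blood, at 1013, 705 and 638 CPM in naive, sham and SCI blood, and its thinned share in SCI blood (44.6 to 60.1%) lay below that in naive blood (62.9 to 88.8%). PTGER2 stood at 317, 268 and 257 CPM in the cells, with a log2 ratio of -0.31 (-0.78 to 0.20) for SCI against naive blood, while the other CD8-negative T cells had 1.23 (1.03 to 1.44).

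Interferon-stimulated genes were lower in SCI blood than in sham blood, in these cells and in the other CD8-negative T cells alike. Of 22 genes of the type I interferon list with enough counts, 19 were below 0 within the cells, beside 1648 of the 3413 genes used. At least 2-fold lower were 5, against 1.58% of the genes used, and the list's median log2 ratio was -0.73. The other CD8-negative T cells had a median of -0.65. ISG15, an ubiquitin-like modifier, had 335 counts in sham blood and 547 in SCI blood, with a log2 ratio of -0.99 (-1.19 to -0.79), and MX1, an antiviral GTPase, had -0.95 (-1.27 to -0.63). IFI27 was the lowest of them, with 73 counts in sham blood and 27 in SCI blood, but 32 of the 73 were left without the deepest barcode, and 1 count was found in naive blood. Against naive blood, 15 of 19 genes were below 0 in SCI blood, beside 1590 of the 3204 genes used. The list's median was -0.43, and the other CD8-negative T cells had -0.41. For sham against naive blood the median was 0.03, with 10 of 19 above 0, beside 679 of the 1336 genes used. Without the deepest barcodes the median for SCI against sham blood was -0.84, with 18 of 22 below 0.

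**Figure D5:**
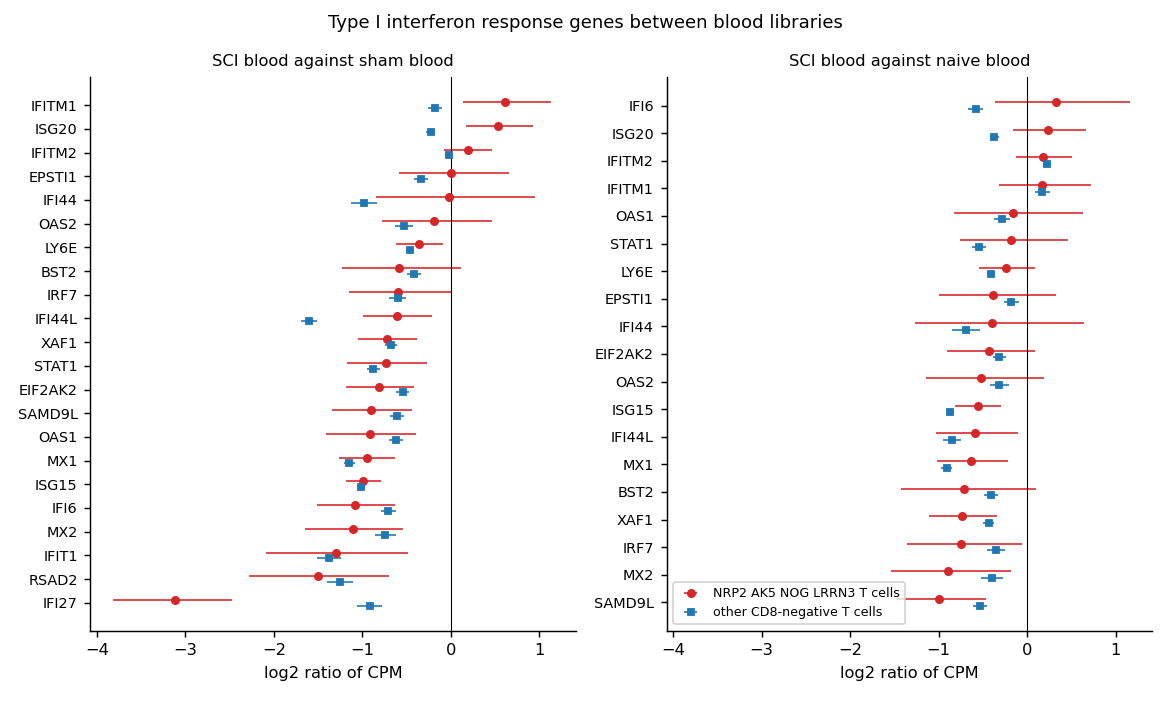
Log2 ratios of CPM (x axis) of type I interferon response genes (y axis) in SCI blood against sham blood and against naive blood, for NRP2/AK5/NOG/LRRN3 T cells (circles) and other CD8-negative T cells (squares). Bars are 95% exact intervals. Most genes lie left of 0 in both sets of cells, with medians of -0.73 and -0.65 against sham blood, and IFI27 stands apart in the circles.

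Few other genes differed between libraries once the deepest barcodes were set aside. Within the cells, 27 of 1336 genes used (2.02%) were at least 2-fold higher and 18 (1.35%) at least 2-fold lower in sham than in naive blood. In SCI against naive blood 74 of 3204 (2.31%) were higher and 57 (1.78%) lower, and in SCI against sham blood 53 of 3413 (1.55%) were higher and 54 (1.58%) lower. Without the deepest barcode of each library the counts were 7 and 8, 54 and 41, and 44 and 16. The highest genes in sham blood, HMOX1 with 148 counts against 0, S100A8 with 113 against 0 and S100A9 with 423 against 2, came from the deepest barcode, which held 148, 113 and 418 of those counts.

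MYOM2 did not rest on those barcodes. This gene, known as a muscle sarcomere gene, had 4 counts in naive blood, 15 in sham blood and 129 in SCI blood, with a log2 ratio of 2.57 (1.34 to 4.63) for SCI against naive blood. The other CD8-negative T cells had 3.36. HIST1H4C, a replication-dependent histone gene, had 18, 41 and 384 counts and a log2 ratio of 2.10 (1.46 to 2.91) for SCI against naive blood, where the others had 0.33. Without the deepest barcodes its ratio was 1.68, from 16 and 263 counts. GZMK, at 380, 70.5 and 110 CPM, had -1.79 (-2.31 to -1.25) for SCI against naive blood, and the others had -0.53. S1PR1, the receptor that lets T cells leave lymphoid organs, had 34, 23 and 72 counts and -1.21 (-1.80 to -0.56), where the others had -0.22. LMNA, which encodes lamin A and C, was lowest in sham blood, with 84, 35 and 246 counts and a log2 ratio of 1.10 (0.60 to 1.67) for SCI against sham blood, where the others had 0.20.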

How the data were processed

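Human CD45+ cells of 4 libraries were profiled with the 10x Genomics droplet assay. The authors aligned reads to a joint human and mouse reference (builds hg38 and mm10 in the submitters' processing notes) with Cell Ranger (3.1.0 in the matrix headers) and deposited raw UMI counts per gene and barcode, which precede their removal of mouse cells, outlier cells and predicted doublets. From these counts human barcodes were kept as in the rule, with Python 3.11.15, numpy 2.4.6 and scipy 1.17.1. Counts were summed per library and set of cells, and log2 ratios of CPM were given with conditional exact binomial intervals, shares with exact Clopper-Pearson intervals at 95%. No test was run. Cells were thinned to 2000 UMIs with a fixed seed, and cells below that were left out: 162, 50 and 59 of the other CD8-negative T cells in naive, sham and SCI blood and 0 of the NRP2/AK5/NOG/LRRN3 T cells. Doublets were kept, and Scrublet (scanpy 1.11.5) was an alternative. The calculations were tested on simulated data. The cells, lists and alternatives were chosen with earlier results of these data known. Named genes were the rule genes, GZMA, up to 4 extremes per list, the 10 highest and 10 lowest over all genes (at least 100 counts, by the smallest absolute ratio over the libraries) and the 5 highest and 5 lowest between libraries, without antigen receptor segments and genes tied to sex. KLRG1, PTGER2, HOPX, PLXNA4, TRDC, CD7, CXCR4 and GPR183 and other genes outside these were chosen after their values were seen. The values of 1 gene of the naive list are not reported here, but the list's counts and medians include it.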

Additional observations from a re-analysis of the deposited data

Results flagged for a closer look

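The MHC class II list was higher than in the other CD8-negative T cells in naive blood, with a median log2 ratio of 1.73, and lower in SCI blood, with -1.97. The monocyte list was higher in sham blood, with 2.32, and lower in SCI blood, with -4.00, or -3.17 with genes at 0 counts set to their bound. Each pair points in opposite directions in libraries of different conditions, with 1 library each, and the difference was not tested. Without the deepest barcode of each library the values were -3.25 and -2.42 for the MHC class II list in naive and SCI blood and -3.70 and -3.96 for the monocyte list in sham and SCI blood.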

How the results depend on the processing

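No paired analysis was possible because there was 1 library per condition and the libraries carry no shared replicate numbers. The member share, GZMA and the naive list kept their direction under every alternative run, and 113 of the recomputed main values stayed within their counting interval or within 1.5 times their count, while 25 did not. The log2 ratio of the share ranged over 0.04 to 1.65 for sham against naive, 1.55 to 2.53 for SCI against naive and 0.88 to 1.88 for SCI against sham. With at least 3 of the 4 genes required it was 1.65, 2.53 and 0.88, GZMA was 2.40, 1.73 and 1.85 in naive, sham and SCI blood, and the naive list 0.83 in SCI blood. With at least 2 of AK5, NOG and NRP2, the share was 1.19 for SCI against sham, GZMA 1.94 in naive and 1.75 in sham blood and the naive list 0.89 in SCI blood. Thinned to 1000 UMIs, the share was 1.13 for SCI against sham. Against cells with none of the rule genes GZMA in SCI blood was 1.68, and as a mean of per-cell CPM it was 1.80 in sham blood. With at least 20 counts in place of 50, genes at least 2-fold higher and lower numbered 151 and 126 for sham against naive, 340 and 336 for SCI against naive and 290 and 219 for SCI against sham, where more genes of low count enter.

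An alternative chosen after seeing the data removed the deepest barcode of each library. GZMA was then 1.80 in sham and 1.56 in SCI blood, genes past 2-fold numbered 7 and 8 for sham against naive and 16 lower for SCI against sham. A total of 25 other values changed sign under this removal and under no other alternative. Many of them then rest on few or no counts in the cells and on the 0.5 counts added, so they are neither folds nor bounds: HLA-DRA had 0, 1 and 7 counts in naive, sham and SCI blood, HLA-DPB1 0, 3 and 9 and HLA-DPA1 1, 5 and 17, TYROBP and HLA-DQA1 had 0 in naive and sham blood, and S100A8, HLA-DMB and FCER1G had 0 in sham blood. Against the other CD8-negative T cells these were IFITM3 -0.23, HLA-DRA -5.88, HLA-DQA1 -3.22, HLA-DQB1 -2.87, CST3 -2.09, TYROBP -2.87, FCER1G -0.88 and the MHC class II list -3.25 in naive blood, and HLA-DRA -5.11, HLA-DMB -2.25, S100A8 -6.58, S100A9 -4.29, CST3 -2.13, TYROBP -3.75, FCER1G -4.01 and the monocyte list -3.70 in sham blood. Within the cells they were HLA-DRA 1.12, HLA-DPA1 1.41, HLA-DPB1 2.34 and CD74 0.45 for sham against naive, HLA-DRA 1.59, HLA-DPA1 1.23, HLA-DPB1 1.93 and CD74 0.35 for SCI against naive, and HLA-DRA 0.47 for SCI against sham.

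Limits are the 40 to 170 cells per blood library, 127 human cells in the cord, the capture of 4 low transcripts on which the rule rests, and 1 library per condition. Scrublet marked 3, 2 and 12 of the cells in naive, sham and SCI blood (6.67%, 5% and 7.06%, against 4.70%, 5.08% and 4.35% of the other CD8-negative T cells), none of them a deepest barcode.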
